A study of Mus musculus with 15 samples.

Results

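The sensory neuropeptides are the short signalling peptides that trigeminal sensory neurons cut from larger precursors, and 10 precursor genes, Tac1, Calca, Calcb, Adcyap1, Gal, Sst, Nppb, Nmb, Npy and Vip, were read by their gene identifiers from a count table of 55573 genes. The table covered 15 right trigeminal ganglia (TG), the ganglia that hold the cell bodies of corneal sensory nerves, from male CD1 mice (an outbred stock) bought at 10 weeks of age. Every mouse had first been wounded on the right eye, by scraping away the surface epithelium and the front of the stroma within a 2-mm circle of central cornea. The eyes then received vehicle, RvD6-standard (RvD6) or RvD6-isomer (RvD6si) 3 times a day for 12 days, with 5 TG in each group. Thus all 3 groups share the injury, and no uninjured TG was analysed here. RvD6 is a dihydroxy derivative of docosahexaenoic acid, and RvD6si is a stereoisomer of it that was purified from mouse tears and corneal culture medium. The doses of both lipids and the make-up of the vehicle are not given in the sources used here. A whole TG serves much of the face, so corneal neurons are only a part of the cells measured.

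Neuropeptide precursors pass into dense core vesicles, where proteases cut them at pairs of basic residues and an amidating enzyme trims a terminal glycine. Tac1 encodes substance P, and Calca and Calcb encode the alpha and beta forms of calcitonin gene-related peptide (CGRP). Released from peripheral endings, these peptides widen vessels and act on immune and epithelial cells, and CGRP is a known mediator of migraine. Calca also gives the hormone calcitonin through another splice form, and a count per gene does not separate the forms.

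The coding sequences of the CGRPs are shown because the peptides are nearly the same while the genes were counted apart. The stretches run 5′ to 3′ on the coding strand, from the first codon of the peptide through the glycine and paired basic codons that follow it, and capitals mark the bases that differ between the genes. They come from GENCODE release M21 transcripts on GRCm38, both in exon 4 of 5, at chr7:114632461-114632580 on the minus strand for Calca and chr7:114721994-114722113 on the plus strand for Calcb.
Calca: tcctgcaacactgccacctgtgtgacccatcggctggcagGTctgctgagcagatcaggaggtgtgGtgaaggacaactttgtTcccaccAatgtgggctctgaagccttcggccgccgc
Calcb: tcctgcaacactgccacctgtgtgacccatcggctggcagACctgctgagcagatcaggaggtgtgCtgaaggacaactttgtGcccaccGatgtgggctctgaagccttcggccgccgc

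Of the 111 peptide-coding bases, 5 differed (95.5% identity), and 3 of 37 codons gave another residue. Even so, none of the 1678 windows of 75 bases (the number of sequencing cycles) in Calca transcripts occurred among the 1260 windows of Calcb. The longest run shared by the transcripts was 61 bases, so a full-length read without errors could be placed on either gene alone. The substance P stretch of Tac1, shown because Tac1 gave the lowest unadjusted p of the RvD6si comparison among these genes, lies in exon 3 at chr6:7556732-7556773 on the plus strand, with the glycine and paired basic codons in capitals.
Tac1: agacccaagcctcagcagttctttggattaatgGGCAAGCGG

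Library totals ranged from 4125962 to 9903396 counts, with medians of 9147139 in vehicle, 7235362 in RvD6 and 6862705 in RvD6si. The 10 genes together took 0.154% to 0.197% of the counts in vehicle, 0.119% to 0.165% in RvD6 and 0.140% to 0.169% in RvD6si. All sample values below are normalised read counts, the counts divided by a size factor for the library. The labelled tissue was checked by its markers, and 12 pan-neuronal genes summed to between 6085 and 10202 CPM (counts scaled to the library total) in every library. Libraries also differed in blood, bone marrow and muscle markers, and these values are given beside the results that they touch.

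Levels were compared between genes as RPKM, counts scaled to exonic length and to the library total. Calca was the most abundant of the 10 in all groups, at 645 ± 77.4 RPKM in vehicle (SD, n = 5), 540 ± 76.5 in RvD6 and 589 ± 53.8 in RvD6si. In vehicle its RPKM was 5.06 times that of Calcb, at 127 ± 9.05. Tac1, at 121 ± 20.6 RPKM in vehicle, overlapped Calcb over the 5 ganglia. Nmb followed at 66.0 ± 12.0 RPKM and Gal at 21.3 ± 6.07, each with a range separate from its neighbours. Sst (4.15 ± 2.07 RPKM), Adcyap1 (3.36 ± 0.772) and Npy (2.74 ± 3.04) overlapped one another. Vip (0.480 ± 0.609 RPKM) and Nppb (0.0833 ± 0.120) were lowest and included ganglia with no read. The first 5 places went to the same genes in every group, while Vip stood 6th in RvD6 and 9th in vehicle and RvD6si, with ranges that overlapped its neighbours.

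The first question was whether either lipid changed these precursors in the TG. Tac1 and Calcb were lower in TG from lipid-treated mice, with group means between 70.3% and 79.3% of vehicle, Nmb followed at 68.2% and 75.7%, and Calca, Gal, Adcyap1, Sst and Npy overlapped vehicle widely. No member passed the threshold of 0.05 on the adjusted p of the quasi-likelihood F test in edgeR, fitted to all 15 samples and 16567 genes. The test covered 9 members, since Nppb had too few reads. Over all genes tested, 0.670% passed in RvD6si against vehicle, 0% in RvD6 against vehicle and 0.235% in RvD6si against RvD6. These shares rest on single libraries, since leaving out 1 of the 15 samples moved the 111 genes called in RvD6si against vehicle to between 0 (without replicate 11 of RvD6si) and 229 (without replicate 9 of RvD6), the 0 for RvD6 to at most 51 and the 39 between the lipids to between 2 and 156. Log2 fold changes below come from this fit, and the vehicle samples are shared by the comparisons of both lipids.

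Tac1 in vehicle had normalised counts of 2953, 2600, 3174, 2515 and 3933 in replicates 1 to 5. In RvD6 (replicates 6 to 10) they were 2597, 2505, 2313, 2028 and 2116, and in RvD6si (replicates 11 to 15) 1930, 2182, 2003, 2282 and 2446. All 5 RvD6si ganglia lay below all 5 vehicle ganglia, as did 4 of the 5 RvD6 ganglia. Tac1 was thus at 71.5% of the vehicle mean in RvD6si and at 76.2% in RvD6. The two-sided exact permutation test of the means gave p = 0.00794 for RvD6si, the smallest p that 5 against 5 samples allow, and p = 0.0159 for RvD6. Scaled to the library total alone, Tac1 did not separate RvD6si from vehicle. On that scale replicate 15 of RvD6si, at 107 RPKM, lay above replicates 2 and 4 of vehicle, at 106 and 101. Replicates 6 and 7 of RvD6, at 102 each, also lay above replicate 4 of vehicle. The log2 fold change was -0.49 (SE 0.13, edgeR adjusted p = 0.0813) for RvD6si and -0.41 (SE 0.13, edgeR adjusted p = 0.1995) for RvD6. DESeq2 on all samples gave Tac1 an adjusted p of 0.0102 under RvD6si, in a fit that called 8.13% of the 11321 genes with an adjusted p.

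Calcb had normalised counts of 1050, 1222, 1171, 1280 and 1190 in vehicle. The RvD6 ganglia held 1021, 704, 1010, 742 and 681, and the RvD6si ganglia 862, 1030, 880, 974 and 944. No lipid-treated ganglion reached the lowest vehicle value, although replicate 6 of RvD6 and replicate 12 of RvD6si came near it. Scaled to the library total alone, replicate 12 of RvD6si, at 116.5 RPKM, lay just above replicate 1 of vehicle, at 116.3. The RvD6 values fell into 2 at the level of RvD6si and 3 below every RvD6si ganglion. Exact permutation tests gave p = 0.00794 for each lipid. The mean was 70.3% of vehicle in RvD6 (log2 fold change -0.52, SE 0.14, edgeR adjusted p = 0.143) and 79.3% in RvD6si (-0.34, SE 0.14, edgeR adjusted p = 0.231). DESeq2 on all samples gave Calcb an adjusted p of 0.0223 under RvD6, in a fit that called 1.92% of genes, and fitted to the groups compared it called Calcb under RvD6 among 3.31% of genes and Tac1 and Calcb under RvD6si among 8.67% of genes.

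Calca, the dominant CGRP gene, had 6939, 6659, 9164, 8269 and 8961 normalised counts in vehicle. The RvD6 ganglia gave 7427, 7274, 7564, 5788 and 5417, and the RvD6si ganglia 6666, 7923, 6593, 7324 and 6123. The groups overlapped, with 3 RvD6 and 3 RvD6si ganglia inside the vehicle range. The log2 fold change of Calca was -0.27 (95% interval -0.54 to -0.00174) for RvD6 and -0.21 (-0.48 to 0.06) for RvD6si. The adjusted p was 0.365 and 0.438 in edgeR. The values measured for Calcb under the same lipid, -0.52 and -0.34, lie inside these intervals, and the difference between the genes in this fit was not tested.

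Nmb, the precursor of neuromedin B, a peptide of small sensory neurons with a role in itch, had 483, 333, 373, 321 and 413 normalised counts in vehicle. RvD6 ganglia had 388, 293, 273, 216 and 285, and RvD6si ganglia 182, 289, 213, 257 and 371. In each lipid group 4 of 5 ganglia lay below every vehicle ganglion and the other lay inside the vehicle range. The log2 fold change was -0.56 (SE 0.20, edgeR adjusted p = 0.184) for RvD6si, with an exact permutation p of 0.0317. For RvD6 it was -0.41 (SE 0.20, edgeR adjusted p = 0.385), with an exact permutation p of 0.0556. Of the exonic bases of Nmb, 163 (20.6%) are also annotated to Sec11a on the same strand, and by the default of featureCounts a read on both genes is counted for neither.

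Gal encodes galanin, a peptide that sensory neurons raise after axon injury. Its normalised counts spanned 69.9 to 164 in vehicle, 55.8 to 145 in RvD6 and 50.7 to 120 in RvD6si. The ranges overlapped widely, and the log2 fold changes of -0.40 (SE 0.30) for RvD6 and -0.47 (SE 0.30) for RvD6si did not pass an unadjusted p of 0.05. Adcyap1, the precursor of PACAP, a peptide related to VIP, was the tested member with more than 50 counts in every library whose fold changes had the other sign. It spanned 71.8 to 118 in vehicle, 66.4 to 145 in RvD6 and 64.1 to 178 in RvD6si, at log2 fold changes of 0.23 (SE 0.29) and 0.40 (SE 0.29). Neither Gal nor Adcyap1 could be told from vehicle with 5 ganglia a group.

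**Figure D1:**
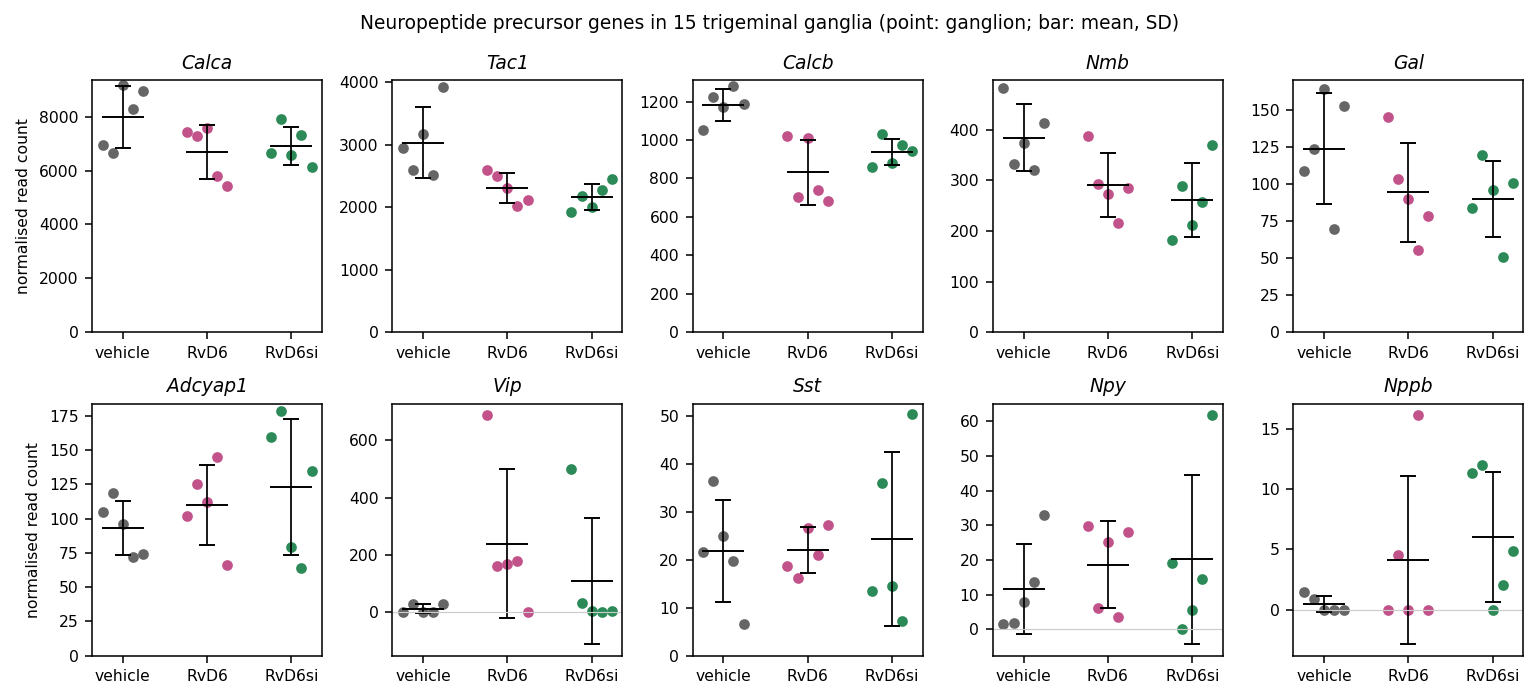
Normalised read counts of the 10 precursor genes (vertical axes, linear) in each TG, by group. Points stand for ganglia in replicate order, horizontal bars for means and whiskers for SD (n = 5). Calcb in all 10 lipid-treated ganglia, between 681 and 1030, sits below the lowest vehicle ganglion at 1050, while Vip is spread by single ganglia at 687 and 499.

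In counts of genes, 3 of 9 tested members were lower at an unadjusted p under 0.05 in RvD6si against vehicle (Tac1, Calcb and Nmb), where 7.30% of all genes were lower on that scale. In RvD6 against vehicle these were Tac1, Calcb and Calca, again 3 of 9, against 5.99% of all genes. Vip was the 1 member higher in each, against backgrounds of 8.68% and 7.63%. In normalised counts, all 5 lipid-treated ganglia lay below all 5 vehicle ganglia for 2 of 9 tested members under RvD6si (Tac1 and Calcb). Under RvD6 this held for 1 (Calcb). The shares over all genes were 2.40% and 1.47%. The median log2 fold change of the 9 members was -0.21 for RvD6si and -0.27 for RvD6, beside 0.02 for all genes in both. In all, 30 comparisons of normalised counts were tested by exact permutation without adjustment, and 6 had p under 0.05, of which 5 were Tac1, Calcb and Nmb and the sixth Vip.

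**Figure D2:**
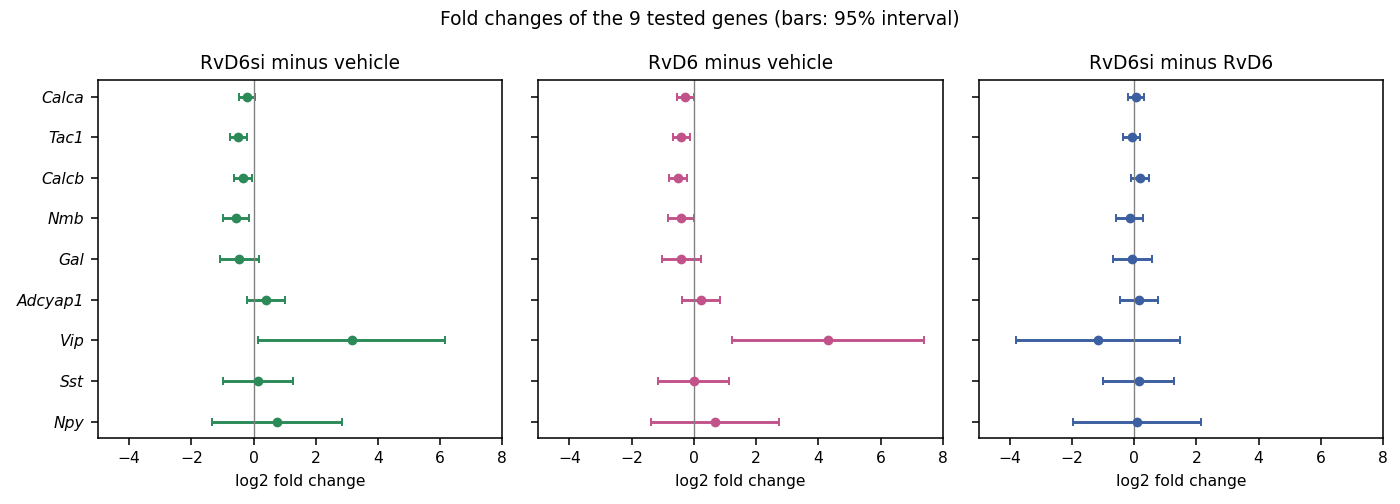
Log2 fold changes from edgeR (horizontal axes) of the 9 tested precursor genes for RvD6si minus vehicle, RvD6 minus vehicle and RvD6si minus RvD6, with 95% intervals as bars. The intervals of Tac1, Calcb, Nmb and Vip lie off 0 for RvD6si minus vehicle, and the intervals of all 9 genes include 0 for RvD6si minus RvD6.

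Since these genes are transcribed in neurons, their counts were set beside the neuronal content of each library. In bulk TG, fewer neurons of a type and less RNA per neuron cannot be told apart. The 12 pan-neuronal markers summed to 9246 to 10112 CPM in vehicle, 6085 to 8967 in RvD6 and 8225 to 10202 in RvD6si. All RvD6 ganglia thus lay below all vehicle ganglia, and replicates 9 and 10 of RvD6, at 6144 and 6085 CPM, were the lowest of all. The drop was not one of neuronal markers alone, since 8 markers of satellite glia, the cells that wrap the neurons, also lay wholly below vehicle in RvD6, at 7018 to 8528 CPM against 8852 to 10181 (ratio of means 0.845, exact permutation p = 0.00794). Markers of other tissues were high in the same group. The 15 bone marrow and blood markers reached 6371 to 12562 CPM in RvD6 against 2470 to 5530 in vehicle and 1095 to 14880 in RvD6si, and the 11 muscle markers 129 to 3298 CPM against 47.9 to 196 and 39.3 to 83.7. Blood and muscle RNA entered the fit only as covariates, and their part in the peptide results was not tested. Every RvD6 ganglion had a higher blood score (at least 0.735) than every vehicle ganglion (at most 0.715). The muscle scores of these groups overlapped only through replicate 7 of RvD6 (0.065) and replicate 4 of vehicle (0.570). For RvD6 such a covariate therefore cannot be told apart from the treatment, and the values fitted with it are a description. With the blood score in the fit Tac1 stood at -0.48 for each lipid and Calcb at -0.33 for RvD6si and -0.55 for RvD6, and with the muscle score Tac1 stood at -0.21 and Calcb at -0.72 for RvD6.

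Libraries were then scaled to the pan-neuronal markers in place of all genes. The log2 fold change of Tac1 went to -0.01 (SE 0.14) for RvD6 and to -0.34 (SE 0.14) for RvD6si. Calcb came to -0.15 for RvD6 and -0.19 for RvD6si, and Calca under RvD6 turned from -0.27 to 0.11. Such a scale moves every gene by about the same amount, and the median over all genes went from 0.02 to 0.43 for RvD6 and to 0.16 for RvD6si. Relative to that median Tac1 stood at -0.44 for RvD6 and -0.49 for RvD6si, Calcb at -0.58 and -0.34, and Calca at -0.32 and -0.21. Taking off the median largely undoes the scaling, so these values come near those on the scale of all genes by construction. They do not test the part of neuronal content. Per 1000 pan-neuronal marker counts, vehicle ganglia held 42.5 ± 6.50 Tac1 counts (mean ± SD, n = 5), RvD6 ganglia 42.2 ± 5.19 and RvD6si ganglia 33.7 ± 5.20. On this ratio RvD6si was below vehicle (exact permutation p = 0.0476) and below RvD6 (exact permutation p = 0.0397). RvD6 was not separable from vehicle (exact permutation p = 0.952). Between the lipids the pan-neuronal scale moved Tac1 to -0.32 and the median over all genes to -0.27. Relative to that median Tac1 stood at -0.06, and its normalised counts did not separate the lipids (exact permutation p = 0.341). Without replicates 9 and 10 of RvD6, Tac1 stood at -0.31 and Calcb at -0.39 for RvD6 on the scale of all genes.

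Peptidergic nociceptors, the neurons that make CGRP and substance P, gave a further scale. The list used as their markers held 12 genes that are not peptides, and not all of these are confined to peptidergic nociceptors. It summed to 721 to 893 CPM in vehicle, 584 to 764 in RvD6 and 813 to 1042 in RvD6si. In RvD6si the sum was 1.22 times that of vehicle (exact permutation p = 0.0159) and 1.42 times that of RvD6 (exact permutation p = 0.00794), although 2 of the 12 genes were higher than vehicle at an unadjusted p under 0.05 and 0 at the adjusted threshold. Markers of nonpeptidergic nociceptors, 10 genes of which Scn10a is in both lists, had a mean of 710 CPM in RvD6si against 591 in vehicle (exact permutation p = 0.0159). Of the 9 tested by edgeR, 0 were higher than vehicle at an unadjusted p under 0.05. Scaled to the peptidergic list, an alternative chosen after seeing the data, Tac1 fell by 0.67 on the log2 scale for RvD6si against vehicle (edgeR adjusted p = 0.0264). It fell by 0.51 for RvD6si against RvD6 (edgeR adjusted p = 0.0324). The same scaling called 2.41% and 6.15% of all genes in these comparisons, 381 of 400 and 1018 of 1019 of them lower, and moved the median over all genes to -0.19 and -0.45. Relative to that median Tac1 stood at -0.48 against vehicle and at -0.06 against RvD6, so the second value of Tac1 was little more than the shift common to all genes. Per 1000 of these marker counts Tac1 was 521 ± 55.4 in vehicle, 467 ± 25.9 in RvD6 and 328 ± 54.5 in RvD6si, and no RvD6si ganglion overlapped the other groups (exact permutation p = 0.00794 against each). Calca on this ratio was 1382 ± 187 in vehicle and 1050 ± 211 in RvD6si (exact permutation p = 0.0476), Calcb 205 ± 24.6 and 142 ± 25.4 (exact permutation p = 0.0159), and Nmb 66.6 ± 12.7 and 40.0 ± 13.3 (exact permutation p = 0.00794). For RvD6 Calcb was 168 ± 26.0 (exact permutation p = 0.0317). The higher marker sum in RvD6si enters each of these ratios as the divisor.

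The ratio of peptides within a library needs no scaling. There were 0.381 ± 0.0560 counts of Tac1 per Calca count in vehicle, 0.348 ± 0.0301 in RvD6 and 0.316 ± 0.0487 in RvD6si. The groups overlapped, and exact permutation p was 0.317 for RvD6 and 0.0873 for RvD6si against vehicle. Calcb per Calca count was 0.150 ± 0.0220 in vehicle, 0.124 ± 0.0161 in RvD6 and 0.136 ± 0.0104 in RvD6si, with an exact permutation p of 0.0794 for RvD6 and 0.333 for RvD6si. Within libraries, therefore, Tac1 and Calcb were not shown to change relative to Calca.

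**Figure D3:**
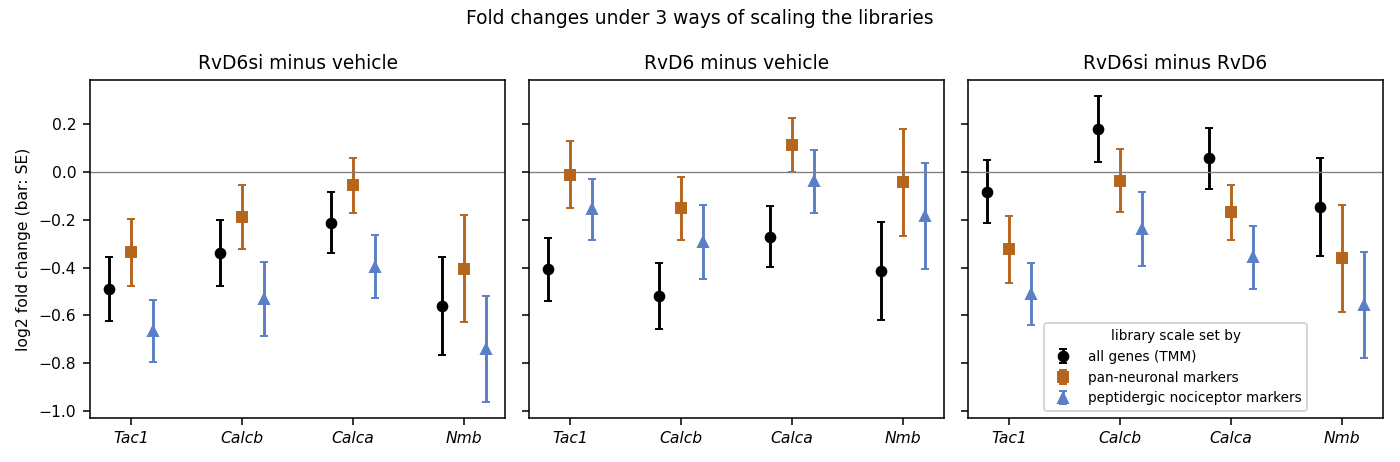
Log2 fold changes (vertical axis, bars SE) of Tac1, Calcb, Calca and Nmb with libraries scaled to all genes (circles), pan-neuronal markers (squares) or peptidergic nociceptor markers (triangles), in 3 panels by comparison. For RvD6 minus vehicle, Tac1 moves from -0.41 to -0.01 under the pan-neuronal scale, and for RvD6si minus RvD6 from -0.08 to -0.51 under the peptidergic scale, while the median over all genes moves to 0.43 and -0.45.

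**Figure D4:**
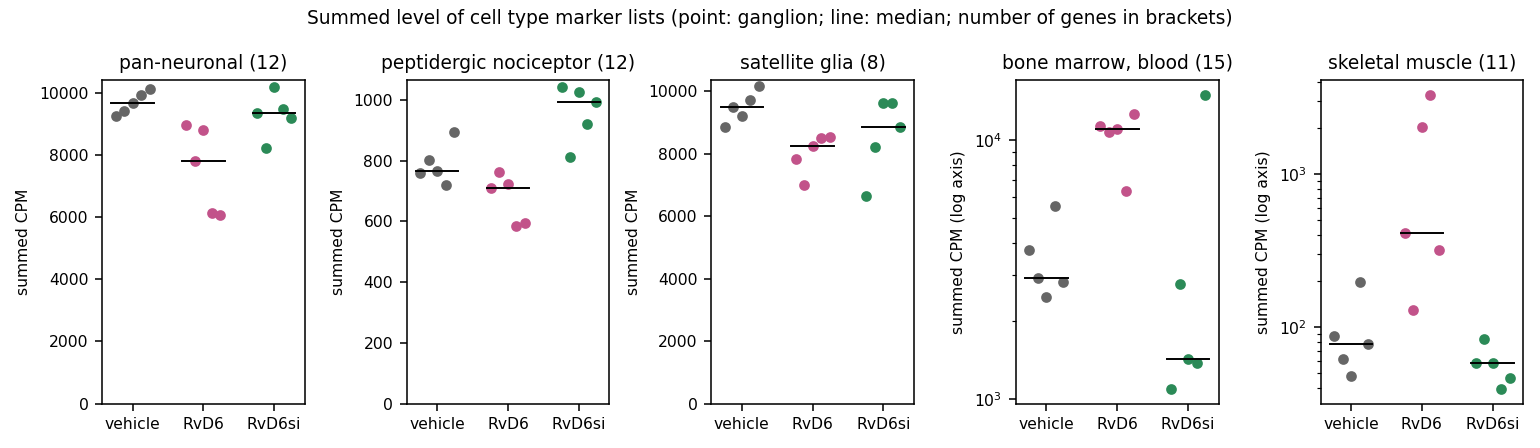
Summed CPM of marker lists in each TG by group, with medians as lines, on linear axes from 0 for neuronal and glial lists and log axes for blood and muscle lists. The RvD6 ganglia lie below vehicle for pan-neuronal markers (6085 to 8967 against 9246 to 10112), and 1 RvD6si ganglion reaches 14880 CPM of bone marrow and blood markers.

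The remaining precursors were sparse. Sst encodes somatostatin and Nppb encodes BNP, and in sensory ganglia both mark a small class of itch neurons. Sst had 7 to 45 reads per library, and its normalised counts overlapped in vehicle (6.58 to 36.5), RvD6 (16.2 to 27.2) and RvD6si (7.24 to 50.4). The 95% interval of its log2 fold change, from -0.99 to 1.27 for RvD6si and from -1.14 to 1.12 for RvD6, is wide on either side of 0. Nppb had 2, 1, 0, 0 and 0 reads in vehicle, 0, 5, 0, 13 and 0 in RvD6, and 10, 15, 0, 2 and 3 in RvD6si. A count of 0 allows up to 3 reads, and 4 of 15 libraries passed that floor. The RvD6si ganglia were not separable from vehicle (exact permutation p = 0.0556). Il31ra, another gene of these neurons, was read in every library, at 11 to 87 counts. The 8 markers listed for this class beside Sst and Nppb, Il31ra among them, summed to 130 to 160 CPM in vehicle, 93.5 to 141 in RvD6 and 127 to 165 in RvD6si.

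Vip and Npy are made by few intact sensory neurons and by many autonomic neurons. Vip had 0, 33, 1, 2 and 34 reads in vehicle, 879, 180, 121, 144 and 0 in RvD6, and 442, 41, 4, 0 and 3 in RvD6si. Thus 4 of 5 RvD6 ganglia were above every vehicle ganglion and the other had no read, while RvD6si was set by replicate 11. The log2 fold change was 4.31 (SE 1.48, edgeR adjusted p = 0.222) for RvD6, with an exact permutation p of 0.0476, and 3.15 (SE 1.43, edgeR adjusted p = 0.290) for RvD6si. Without replicate 11 of RvD6si that value was -0.13, and leaving out any library kept the RvD6 value between 3.38 and 4.93.

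Some autonomic markers were read in libraries with many Vip reads, and others were read where Vip was not. Replicate 11 of RvD6si, with 442 Vip reads, also held 65 reads of the choline transporter Slc5a7, 22 of the acetylcholine transporter Slc18a3, 5 of Chat and 3 of Dbh. Replicate 6 of RvD6, with 879 Vip reads, held 26 of Slc5a7, 11 of Slc18a3 and 1 of Chat. Replicate 7 of RvD6, with 180 Vip reads, held 1 of Slc5a7. In RvD6 replicates 8 and 9, with 121 and 144 Vip reads, Slc5a7 had 19 and 14 reads, whereas in vehicle it had at most 4 and Slc18a3 none. By contrast, Slc18a1, a vesicular monoamine transporter, and Ddc, which makes monoamines, had 38 and 27 reads in replicate 1 of vehicle, 31 and 25 in replicate 10 of RvD6 and 33 and 42 in replicate 14 of RvD6si, all with no Vip read, and 1 and 8 reads in replicate 7 of RvD6. Over the whole list of 10 autonomic markers the summed level was 0.765 to 13.6 CPM in vehicle, 1.25 to 17.3 in RvD6 and 7.19 to 28.7 in RvD6si, and Dbh was at 0 in 14 of 15 libraries. Their part in the Vip result was not tested. Npy was read at 2 to 40 counts in vehicle, 3 to 38 in RvD6 and 0 to 38 in RvD6si, with overlapping groups and log2 fold changes of 0.68 (SE 0.98) and 0.76 (SE 0.99) for RvD6 and RvD6si.

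RvD6 and RvD6si, which differ in stereochemistry and share their hydroxyl positions, were then compared directly, at the same number of days and daily treatments. No member passed an unadjusted p of 0.05 in edgeR, where 4.18% of all genes were higher and 4.64% lower at that p. The log2 difference of RvD6si minus RvD6 was -0.08 for Tac1 (95% interval -0.36 to 0.19), 0.06 for Calca (-0.21 to 0.33) and 0.18 for Calcb (-0.11 to 0.47). It was -0.15 for Nmb (-0.58 to 0.28), -0.07 for Gal (-0.70 to 0.56) and 0.17 for Adcyap1 (-0.44 to 0.78). For Tac1, Calca and Calcb the intervals leave out differences beyond 0.47 on the log2 scale in either direction, and they leave room for smaller ones. For Vip the interval of -3.80 to 1.48 leaves the comparison without an answer. Calca per 1000 peptidergic marker counts was 1050 ± 211 in RvD6si against 1345 ± 61.0 in RvD6 (exact permutation p = 0.0317), while its normalised counts were level and the marker sum was higher in RvD6si.

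The peptides act through receptors, which sit in part on the sensory neurons themselves. Of 27 receptor and coreceptor genes listed, 12 had enough reads to be tested, and none passed the adjusted threshold in any comparison. At an unadjusted p under 0.05 there were 0 in RvD6si against vehicle, 1 higher in RvD6 against vehicle, and 1 higher and 2 lower in RvD6si against RvD6. Over all genes the shares higher and lower at that p were 8.68% and 7.30% for RvD6si and 7.63% and 5.99% for RvD6. Between the lipids they were 4.18% and 4.64%. The 1 of 12 higher in RvD6 is thus near the background. The median log2 fold change of the 12 receptor genes was -0.01 for RvD6si and 0.21 for RvD6. Tacr1, the receptor of substance P, had no read in any vehicle ganglion, 8, 21 and 12 reads in 3 RvD6 ganglia and 3 reads in each of 2 RvD6si ganglia. Calcr had no read in any of the 15 libraries, and Vipr1 had 2 reads in 1.

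The CGRP receptor is a pair of Calcrl and Ramp1. In vehicle, RvD6 and RvD6si the mean normalised counts were 38.9, 56.6 and 27.8 for Calcrl and 48.1, 83.0 and 44.7 for Ramp1. Neither differed at an unadjusted p of 0.05, with edgeR adjusted p between 0.523 and 0.935 for Ramp1. Adcyap1r1, the PACAP receptor, and Galr1, a galanin receptor, stood at log2 fold changes of 0.22 and -0.57 for RvD6si and -0.12 and -0.30 for RvD6. Npr3, which clears natriuretic peptides, had the lowest p of the list, at 1.63 for RvD6 (edgeR adjusted p = 0.223). Ramp2, the partner for adrenomedullin, was -0.65 in RvD6si against RvD6 (edgeR adjusted p = 0.429), and Npy2r was 1.97 (edgeR adjusted p = 0.530). The somatostatin receptor Sstr2 was 1.25 for RvD6si (edgeR adjusted p = 0.640).

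Peptide processing and dense core vesicle genes were well read, and all 18 were tested. At an unadjusted p under 0.05, 4 were higher and 1 lower in RvD6si, 1 higher and 6 lower in RvD6, and 4 higher and 0 lower in RvD6si against RvD6, with 0 past the adjusted threshold in edgeR. Over all genes the shares at that p, higher and lower, were 8.68% and 7.30% for RvD6si, 7.63% and 5.99% for RvD6, and 4.18% and 4.64% between the lipids, so the 1 lower in RvD6si and the 1 higher in RvD6 are near the background. The medians of the list were 0.03, -0.27 and 0.22, beside 0.02, 0.02 and -0.004 for all genes. The list summed to 3183 to 3515 CPM in vehicle, 2183 to 3133 in RvD6 and 3089 to 3678 in RvD6si, so RvD6 lay below vehicle here as for the pan-neuronal markers, and the part of neuronal content in this was not tested. Scg5, a chaperone of the prohormone convertase Pcsk2, had a mean of 4551 normalised counts in vehicle, above 3276 in RvD6 and 3151 in RvD6si. Its log2 fold changes were -0.49 (edgeR adjusted p = 0.138) and -0.53 (edgeR adjusted p = 0.0604), and the ranges of 4077 to 4987 in vehicle and 2764 to 4028 and 2692 to 3662 in the lipid groups did not overlap. Chgb and Scg2, granins of the vesicle core, were -0.50 and -0.36 for RvD6 and 0.02 and 0.08 for RvD6si. Rab3a, a vesicle GTPase, stood at 0.75 for RvD6si (edgeR adjusted p = 0.0638) and 0.37 for RvD6. The convertases Pcsk1 and Pcsk2 stood at 0.04 and -0.01 for RvD6si and -0.19 and -0.35 for RvD6.

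No peptide degrading enzyme passed the adjusted threshold in edgeR. Of 10 tested, 9 had a positive log2 fold change for RvD6si, with a median of 0.52 beside 0.02 for all genes, and 4 were higher and 0 lower at an unadjusted p under 0.05, where 8.68% of all genes were higher. For RvD6 the median was 0.29 beside 0.02, with 1 higher, near the 7.63% of all genes. Thop1, a cytosolic metallopeptidase that cuts short peptides, had a mean of 257 normalised counts in RvD6si, above 146 in RvD6 and 154 in vehicle. Its log2 difference was 0.73 for RvD6si against vehicle (edgeR adjusted p = 0.117) and 0.82 for RvD6si against RvD6 (edgeR adjusted p = 0.224). Ide, the insulin degrading enzyme, was 0.61 for RvD6si (edgeR adjusted p = 0.119), and Prep, which cleaves after proline, was 0.53 in RvD6si against RvD6 (edgeR adjusted p = 0.260). Dpp4, a surface peptidase that trims the NPY peptide, was 2.13 for RvD6 (edgeR adjusted p = 0.191) from a mean of 7.42 normalised counts in vehicle. Mme, known as neprilysin and a main enzyme for substance P, stood at 0.38 for RvD6si and 0.49 for RvD6 without passing a p of 0.05.

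**Figure D5:**
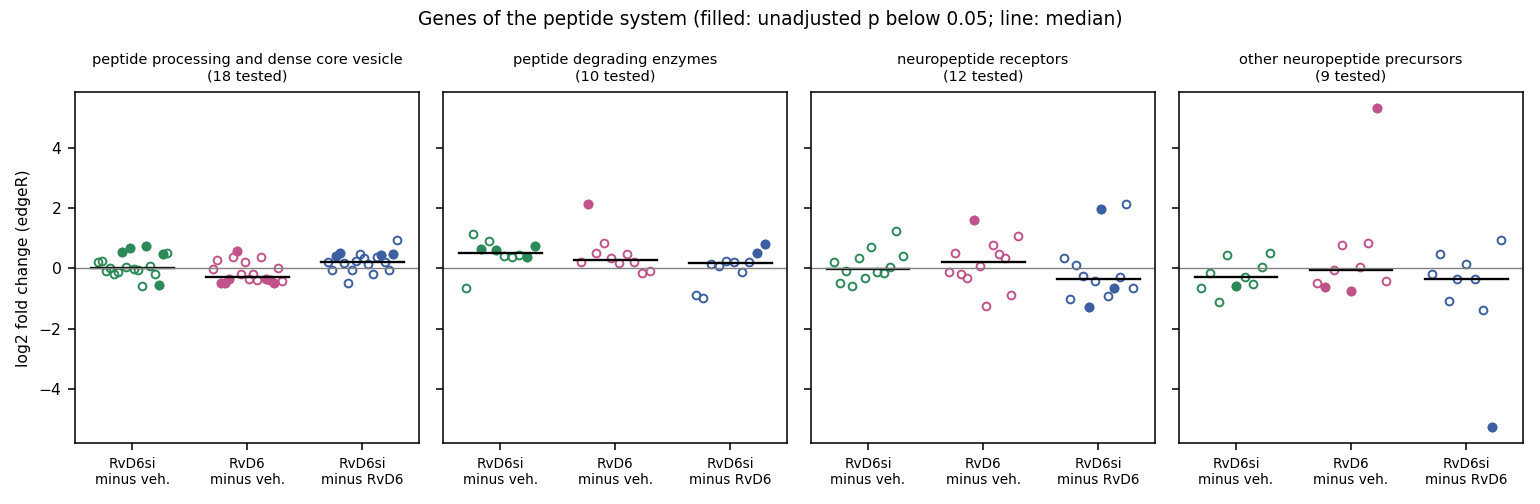
Log2 fold changes from edgeR (vertical axis) of tested genes in 4 lists of the peptide system, for RvD6si minus vehicle, RvD6 minus vehicle and RvD6si minus RvD6. Each point is a gene, filled where its unadjusted p was under 0.05, and lines are medians, which for degrading enzymes stand at 0.52, 0.29 and 0.19.

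Among 26 other neuropeptide precursors, 9 were tested, with medians of -0.29 for RvD6si and -0.04 for RvD6. Nts, the precursor of neurotensin, was -0.60 for RvD6si (edgeR adjusted p = 0.259) and -0.75 for RvD6 (edgeR adjusted p = 0.223). Cartpt was -0.15 and -0.62, and Edn1, the precursor of endothelin 1, was -1.12 and -0.04. Pomc was 5.33 for RvD6 (edgeR adjusted p = 0.156), with a range of 8.41 to 10474 normalised counts in that group, and its highest library, replicate 10, held 1438 CPM of Pomc. The 8 other pituitary markers summed to 91.4 to 866 CPM in RvD6, 9.09 to 3542 in vehicle and 20.6 to 671 in RvD6si, and their part in the Pomc value was not tested. As a description, the genes whose deviations from the group means followed those of a member most closely were ranked by Pearson correlation of log2 CPM over the 15 samples among 11427 genes. They were Nop56 (0.87), Itgb5 (0.84) and Akt2 (0.84) for Tac1, and Med9 (0.87), Slc7a7 (0.87) and Pld3 (0.86) for Calca. For Calcb they were Psmg2 (0.89), Ndufs8 (0.88) and Gm10171 (0.85), and for Adcyap1 Spty2d1 (0.92), Casp2 (0.90) and Mturn (0.88). These are the highest of many correlations and share library and depth. Between members the correlation was 0.60 for Calca and Calcb, 0.54 for Tac1 and Calca, 0.66 for Tac1 and Nmb and 0.23 for Tac1 and Calcb.

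The 250 bases before the start of transcription were searched on both strands for motifs of activity-dependent factors, in RefSeq windows on GRCm38.p6 that matched 9 of the 10 members. TGACGTCA, the full cAMP response element, was found in 1 member, Sst, and in 1.55% of 32851 windows. Its core TGACG, which the full element also holds, was found in 5 (Tac1, Calca, Vip, Sst and Adcyap1) and in 17.8% of windows. TGANTCA, a looser form of the AP-1 site with any base at N, was found in none of the 9 and in 6.75% of windows.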

How the data were processed

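The authors prepared RNA of whole TG by an adapted Smart-seq2 protocol, aligned reads with Rsubread to GRCm38 with GENCODE release M22 and counted them on exons with featureCounts. The submitters' processing notes name R 3.6.1 and Subread 1.6.5. The deposited values are raw counts per gene for 55573 genes in 15 samples, not normalized and without use of strand, with the exonic length of each gene. GENCODE release M21 gave symbols and positions and named 99.7% of identifiers.

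Groups followed the treatment in the labels. Each sample is a right TG of the injured side (5 a group), so samples were taken as separate mice, although the sources used here do not number the mice. The members and lists were chosen with earlier results of these data known. Named are the 10 members and some, not all, of the receptors of tested members. Also named are, for each list and comparison, the 2 genes with the lowest p. The 3 genes most like Tac1, Calca, Calcb and Adcyap1 (mean of at least 50 counts) are named too. Any further gene was chosen after seeing its values.

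Counts were tested in R 4.3.3 with edgeR 4.0.16 (quasi-likelihood F test, 3 groups, TMM, its filter with a minimum count of 10 and total of 15, 16567 genes, Benjamini-Hochberg adjustment). SE is the absolute log2 fold change over the root of F. Normalised counts used DESeq2 1.42.0 size factors and were compared by two-sided exact permutation tests (SciPy 1.17.1), not adjusted. The study's methods used DESeq2, which was an alternative here with its default settings. Other alternatives were edgeR on the groups compared, RLE normalization, testing without a filter, requiring at least 10 counts in each library, gene length trend removal, limma-voom 3.58.1 with sample weights, scaling to neuronal markers, marker scores as covariates and each sample left out. In simulated counts the edgeR step recovered 28.9% of genes changed by a log2 of 1 and 68.7% of those changed by 2, over 16144 genes for RvD6si against vehicle. Intervals of log2 fold changes come from the quasi-likelihood fit, so they include the spread between ganglia of a group. The floor on reads given for Nppb covers counting error only, and reads without molecular identifiers are not independent molecules.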

Additional observations from a re-analysis of the deposited data

Results flagged for a closer look

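In 3 of the 30 groups of 5 normalised counts tested, for 10 genes and 3 groups, a single ganglion stood apart from the rest by a gap of over 0.710 of the group's range. Chance alone gives about 1 such group in 20 for values from a normal distribution, and sparse, skewed counts such as those of Vip and Nppb need not follow that rate. Vip reached 687 normalised counts in replicate 6 of RvD6, where the next ganglion had 178. Vip reached 499 in replicate 11 of RvD6si, where the next had 32.7. Nppb reached 16.1 in replicate 9 of RvD6, a value from 13 reads.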

How the results depend on the processing

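No paired analysis was possible because the replicate numbers 1 to 15 occur in 1 group each. With each sample left out in turn, edgeR called 0 members in all 3 comparisons, and Tac1 kept log2 fold changes of -0.55 to -0.37 for RvD6si and -0.47 to -0.30 for RvD6. The number of members called was 1 (Tac1) with DESeq2 on all samples, 2 (Tac1 and Calcb) with DESeq2 on the groups compared and 1 (Tac1) with the peptidergic scale for RvD6si against vehicle, 1 (Calcb) with either DESeq2 fit for RvD6, and 1 (Tac1) with the peptidergic scale for RvD6si against RvD6. Among the other 80 genes of the peptide system, of which 48 were tested, 0 were called in the edgeR fit. For RvD6si against vehicle the number was 4 with DESeq2 on all samples, 6 with DESeq2 on the groups compared, 3 with limma-voom, 2 with the minimum of 10 counts, and 1 each with edgeR on the groups compared, the peptidergic scale, the muscle score or RvD6 replicates 9 and 10 left out. Over all genes the first 4 of these settings called 8.13%, 8.67%, 3.13% and 2.60%, and the last 4 called 0.98%, 2.41%, 0.65% and 0.93%. Leaving out 1 sample gave 0 to 2, the higher without replicate 9 of RvD6 (Rab3a and Scg5), where 1.35% of all genes were called. For RvD6 it was 2 and 5 with the DESeq2 fits and 1 (Pam) with the pan-neuronal scale, and for RvD6si against RvD6 1 (Pomc) with DESeq2 and 3 with the peptidergic scale. Over all genes the shares called were 1.92%, 3.31% and 2.75% in these settings for RvD6. Between the lipids they were 0.94% with DESeq2 and 6.15% with the peptidergic scale. The counts on the 2 marker scales are thus near the background. Exact permutation p fell under 0.05 in 6 of 30 comparisons, in 1 for counts per Calca count, in 3 for counts per pan-neuronal marker count and in 8 for counts per peptidergic marker count.

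Of 746 fold changes of single members under the alternatives, 49 had the other sign, and 15 of these had moved by over 1 SE. On the pan-neuronal scale Calca turned to 0.11 for RvD6, and for RvD6si against RvD6 Calca turned to -0.17 and Calcb to -0.0369. On the peptidergic scale Calca (-0.36), Calcb (-0.24) and Adcyap1 (-0.25) turned for RvD6si against RvD6, as did Calca (-0.0818) without replicates 9 and 10 of RvD6. With the blood score Nmb turned to 0.17 for RvD6si against RvD6 and Npy to -0.97 for RvD6, and with the muscle score Gal turned to 0.13 for RvD6. With limma-voom Sst turned to -0.43 for RvD6si against vehicle and -0.51 against RvD6. With 1 sample left out, Vip for RvD6si ranged from -0.13 (without replicate 11) to 3.79, Npy for RvD6si from -0.26 (without replicate 15) to 1.66, and Npy for RvD6si against RvD6 from -0.93 (without replicate 15) to 0.42. The turns on the 2 marker scales go with a shift of all genes, whose median moved to 0.43 for RvD6 and -0.27 between the lipids on the pan-neuronal scale and to -0.45 between the lipids on the peptidergic scale. The cause of the other changes was not tested. Depth limits Sst, Npy and Nppb, with at most 45, 40 and 15 reads in a library. The added alternatives (the peptidergic scale, the muscle score, RvD6 replicates 9 and 10 left out and the ratios within a library) were chosen after seeing the data.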
